A study of Mus musculus with 4 samples.

Results

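The glycolysis and hypoxia-response genes described here were 40 genes chosen by symbol: glucose transporters, the enzymes that turn glucose into pyruvate, the enzymes and carriers that handle pyruvate and lactate, and genes of the response to low oxygen. The rule that picks them uses symbols and no measured value, but the set was drawn up with earlier results of these data known. All 40 had a row in the table of the vector experiment, which held 23259 genes, and 37 had one in the table of the Treg experiment, which held 10663. The Treg table listed no row for Hk2, P4ha2 or Vegfa.

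RNA of mouse T cells was sequenced in 2 experiments, with 4 libraries in all. The first held regulatory T cells (Treg), the suppressive CD4 T cells marked by the transcription factor Foxp3. They were taken from the spleen of Balb/c mice with a Foxp3-hCD2 reporter, as the cells that carried hCD2 (human CD2), from an untreated group and from a group given 3% dextran sulfate sodium (DSS) in the drinking water for 7 days. DSS damages the lining of the colon and so brings on colitis. The second held naive CD4 T cells from C57BL6 mice of wild type, which received either a mock vector or one with Sox12, a SoxC transcription factor. The age of the mice, how many were pooled, the culture conditions, the time after transduction and any selection of transduced cells were not given in the sources used here. The title of the series asks about Treg induced by Sox12. Each group had 1 library, so no difference below has a replicate check and no test was run.

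Glycolysis splits glucose into pyruvate in the cytosol and yields ATP without oxygen, and lactate dehydrogenase then returns the electrons to pyruvate to make lactate. T cells raise this pathway when they are activated, while Treg are known to lean more on mitochondrial oxidation. Under low oxygen the factor HIF1A escapes the prolyl hydroxylases that mark it for destruction and switches on most of the enzymes of the pathway, together with genes for mitochondrial turnover, blood vessel growth and the handling of oxygen.

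Levels are in FPKM, fragments scaled to transcript length and to the size of the library, so they may be compared between genes of 1 library. A change is the difference of log2(FPKM + 1), DSS minus untreated or Sox12 vector minus mock vector. For genes of low level this scale makes a difference look smaller than it is, and ratios were taken from the FPKM. Counts cover genes whose 2 libraries average 1 FPKM or more, which is the filter below, and a gene called at least 2 times higher or lower has a change of at least 1 in size. The 2 tables were normalized separately, so changes are taken only within a table, and levels set side by side across tables also differ in strain, tissue handling and culture.

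As a check of the labels, Sox12 stood at 1.56 and 829 FPKM with the mock and Sox12 vectors, and at 0.715 and 1.52 FPKM in untreated and DSS Treg. Foxp3 had 88.2 and 84.9 FPKM in the Treg libraries and 20.9 and 127 FPKM with the mock and Sox12 vectors. The low values of the vector table gave its depth, about 41.9 fragments per FPKM and kilobase with the mock vector and 43.55 with the Sox12 vector. A transcript of 2 kb at 1 FPKM then rests on about 83.8 and 87.1 fragments, a counting error of 10.9% and 10.7%. The depth of the Treg libraries is unknown.

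The sequences just before the start sites of 8 members are shown because these members carry the main finding: 7 with a change of at least 1 in size between the vector libraries, and Ldha, the partner enzyme of Ldhb. Each run is the 250 bases before a RefSeq start site (assembly GRCm38.p6, another build than the mm9 of the submitters), written 5′ to 3′ on the strand of the gene. Capitals mark the 5-base core of the HIF binding element, ACGTG or GCGTG, on either strand, so that CACGT and CACGC are the same letters read on the other strand.
Ldha, chr7:46845554-46845803, plus strand: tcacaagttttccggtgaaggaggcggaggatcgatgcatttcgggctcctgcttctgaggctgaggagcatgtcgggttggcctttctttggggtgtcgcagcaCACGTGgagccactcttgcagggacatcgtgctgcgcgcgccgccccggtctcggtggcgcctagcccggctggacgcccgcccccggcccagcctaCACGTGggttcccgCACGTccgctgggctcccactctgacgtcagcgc
Ldhb, chr6:142507958-142508207, minus strand: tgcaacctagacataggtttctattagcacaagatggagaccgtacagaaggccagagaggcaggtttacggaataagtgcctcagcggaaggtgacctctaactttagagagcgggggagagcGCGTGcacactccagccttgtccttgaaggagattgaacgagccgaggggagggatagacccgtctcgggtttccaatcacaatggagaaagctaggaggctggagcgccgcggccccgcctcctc
Aldoc, chr11:78322823-78323072, plus strand: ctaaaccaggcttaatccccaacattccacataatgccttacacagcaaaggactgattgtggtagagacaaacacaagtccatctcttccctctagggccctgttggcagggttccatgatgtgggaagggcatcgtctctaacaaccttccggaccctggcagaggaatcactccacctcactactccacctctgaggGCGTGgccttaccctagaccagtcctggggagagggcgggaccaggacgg
Slc16a3, chr11:120948817-120949066, plus strand: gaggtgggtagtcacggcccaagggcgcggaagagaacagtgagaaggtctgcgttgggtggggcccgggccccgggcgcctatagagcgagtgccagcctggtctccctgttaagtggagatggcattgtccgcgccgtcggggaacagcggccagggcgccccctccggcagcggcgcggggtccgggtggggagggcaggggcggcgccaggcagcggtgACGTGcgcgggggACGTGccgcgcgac
Egln3, chr12:54203875-54204124, minus strand: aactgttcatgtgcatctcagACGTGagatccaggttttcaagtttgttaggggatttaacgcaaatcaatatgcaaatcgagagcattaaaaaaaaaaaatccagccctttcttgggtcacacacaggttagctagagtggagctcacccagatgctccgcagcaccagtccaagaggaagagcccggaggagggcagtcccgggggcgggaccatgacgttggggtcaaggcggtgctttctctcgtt
Bnip3, chr7:138909507-138909756, minus strand: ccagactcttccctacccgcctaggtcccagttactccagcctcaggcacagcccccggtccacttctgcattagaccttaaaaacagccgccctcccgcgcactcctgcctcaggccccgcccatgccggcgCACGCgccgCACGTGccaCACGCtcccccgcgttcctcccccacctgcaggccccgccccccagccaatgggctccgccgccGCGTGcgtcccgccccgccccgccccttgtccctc
Ero1l (RefSeq Ero1a), chr14:45318573-45318822, minus strand: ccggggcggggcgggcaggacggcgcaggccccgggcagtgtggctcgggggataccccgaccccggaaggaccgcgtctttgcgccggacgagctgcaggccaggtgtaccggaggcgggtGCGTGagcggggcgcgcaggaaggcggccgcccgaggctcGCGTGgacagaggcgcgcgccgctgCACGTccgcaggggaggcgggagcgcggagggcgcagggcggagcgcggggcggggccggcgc
P4ha2, chr11:54100674-54100923, plus strand: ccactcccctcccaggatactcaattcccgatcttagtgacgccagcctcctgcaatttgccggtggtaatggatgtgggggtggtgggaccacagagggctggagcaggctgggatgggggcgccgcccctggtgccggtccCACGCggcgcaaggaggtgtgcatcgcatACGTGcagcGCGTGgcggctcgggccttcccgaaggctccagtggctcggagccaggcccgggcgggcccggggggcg
The run of Ldha held 5 matches to ACGTG, of which 4 lay in 2 palindromes that count once on each strand, and the run of Ldhb held 1 match to GCGTG. Bnip3 had 2 matches to ACGTG, both in 1 such palindrome, and 3 to GCGTG, with the nearest 31 bases before the start. Slc16a3 had 2 matches to ACGTG, the nearest 10 bases before the start, and Egln3 had 1 at 225 bases. A RefSeq start site was found for 37 of the 40 members (none for Slc2a3, Bnip3l and Ndrg1), in 55 windows. Of these windows 78.2% held either core, against 57.1% of 9864 windows of genes past the filter of the vector table and 38.6% of all 32851 windows. ACGTG, with or without the other core, was in 47.3%, 22.4% and 16.6% of these windows, and GCGTG, counted likewise, in 54.5%, 45.6% and 28.2%. Their base composition also differed, with a median GC content of 61.6%, 60.0% and 52.4%. At least 1 window with a core was found for 34 of the 37 members, Eno2, Tpi1 and Gpi1 being the others. The members were chosen as glycolysis and low-oxygen genes, many of which HIF is known to switch on. A higher share was therefore likely beforehand and is no finding. A gene can have several windows, up to 4 for Pfkm. Genes past the filter were matched by symbol alone (7723 of 10822), members also by other names. A match of letters is a description and does not show binding.

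With the Sox12 vector most of these genes were lower than with the mock vector. They spanned glucose uptake, the upper steps of glycolysis, lactate export and the HIF genes Hif1a, Egln1 and Egln3. Ldhb was much higher, and pyruvate kinase and the enolases lay close to equal. All 40 members passed the filter. Of them 34 were lower (85%), against 51.1% of the 10822 genes past the filter, and 6 were higher, against 48.9%. The median change was -0.62, and that of all genes was -0.01. At least 2 times lower were 6 members (15%), against 1.91% of all genes, and 1 was at least 2 times higher, against 4.85%. A change of at least 1.5 times downward was seen in 23 members (57.5%) and in 6.88% of all genes. On this scale with its pseudocount, P4ha2 lay just inside the 2-fold limit with -1.02 and Ndrg1 just outside it with -0.999. Their ratios of FPKM were 0.378 and 0.481, and by ratio alone 7 members were at least 2 times lower. Scaled to equal totals without the 20 highest genes, 4 members were at least 2 times lower instead of 6.

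**Figure D1:**
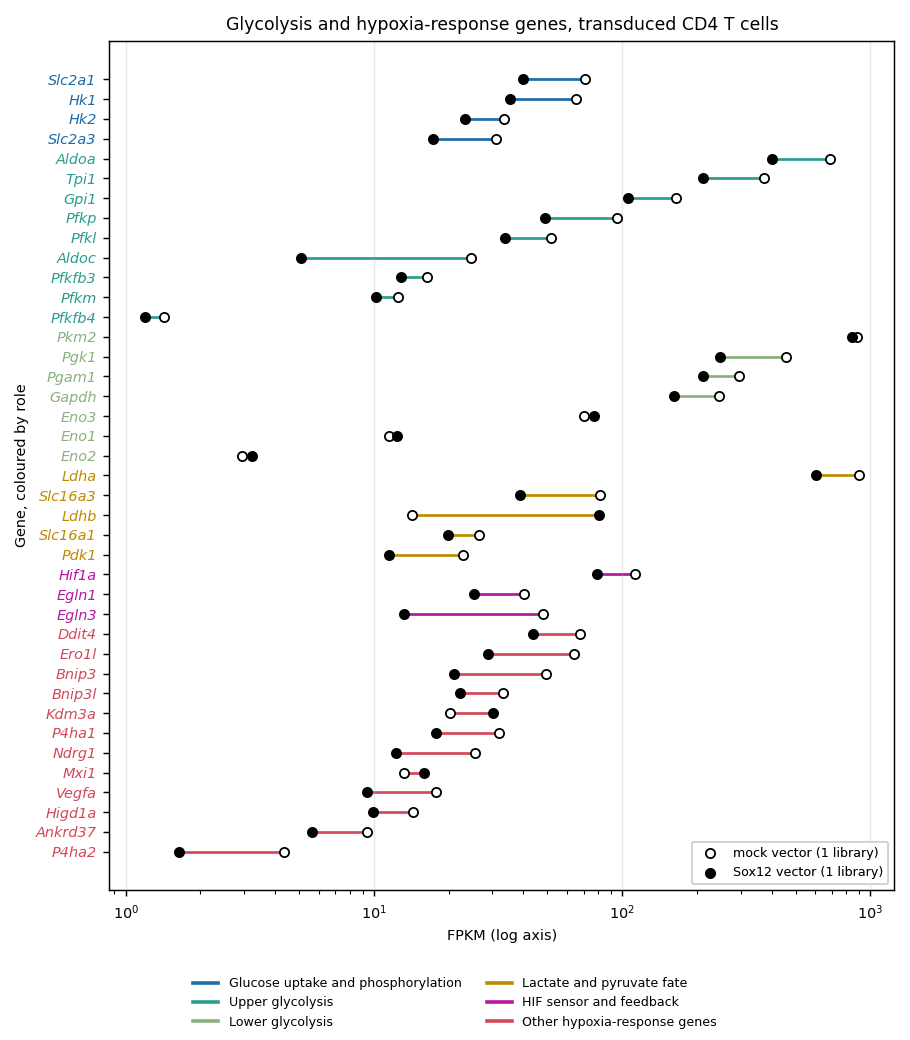
Level of each of the 40 members in the vector experiment in FPKM on a log axis, with 1 point for the mock vector library and 1 for the Sox12 vector library, joined by a line and coloured by role. For 34 genes the Sox12 point lies to the left of the mock point, and Ldhb stands out in the other direction, with 14.2 and 80.3 FPKM.

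The genes that bring glucose into the cell and trap it there were all lower with the Sox12 vector. Slc2a1, the glucose transporter GLUT1, had 71.1 FPKM with the mock vector and 39.7 with the Sox12 vector, a ratio of 0.558. Slc2a3, the high-affinity transporter GLUT3, had 31.0 and 17.3 FPKM, also a ratio of 0.558. The share of Slc2a3 in the sum of both transporters was therefore 30.4% and 30.3%. Hexokinase adds the phosphate that holds glucose inside the cell. Its form Hk1 had 65.0 and 35.4 FPKM (change -0.86), and the inducible form Hk2 had 33.5 and 23.3 FPKM (change -0.50). Hk2 thus made up 34.0% of the pair with the mock vector and 39.7% with the Sox12 vector. The median change of these 4 genes was -0.82.

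All 9 genes of the upper steps, from glucose 6-phosphate to the triose phosphates, were lower, with a median change of -0.63. Gpi1, which converts glucose 6-phosphate to fructose 6-phosphate, had 165 and 106 FPKM. Phosphofructokinase, the committed step, has 3 subunit genes that did not differ to the same extent. Pfkp, the platelet form, had 95.04 FPKM with the mock vector and 48.8 with the Sox12 vector (change -0.95), Pfkl, the liver form, had 51.7 and 33.6 (change -0.61), and Pfkm, the muscle form, had 12.5 and 10.2 (change -0.26). Pfkp made up 59.7% of the 3 with the mock vector and 52.7% with the Sox12 vector. Pfkfb3 and Pfkfb4 make and break down fructose 2,6-bisphosphate, the activator of phosphofructokinase. Their levels were 16.3 and 12.85 FPKM for Pfkfb3 and 1.43 and 1.20 FPKM for Pfkfb4.

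Aldolase splits the 6-carbon sugar, and its 2 genes here were both lower. Aldoa, the abundant form, had 685 FPKM with the mock vector and 399 with the Sox12 vector (change -0.78). Aldoc, better known from brain, had 24.6 and 5.10 FPKM, a ratio of 0.207 and a change of -2.07, which was the lowest among the members. Only 0.268% of the genes past the filter had a lower change. Aldoc thus made up 3.47% of the aldolase transcripts with the mock vector and 1.26% with the Sox12 vector. Tpi1, which interconverts the triose phosphates, had 372 and 211 FPKM (change -0.82).

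The lower steps, from glyceraldehyde phosphate to pyruvate, were divided: 4 of 7 genes were lower and 3 higher, with a median change of -0.06. Gapdh, which oxidizes glyceraldehyde phosphate, had 245 and 162 FPKM with the mock and Sox12 vectors (change -0.59). Pgk1, the first step that yields ATP, had 457 and 248 FPKM (change -0.88). Pgam1, the mutase after it, had 296 and 212 FPKM (change -0.48). Past this point the levels of the 2 libraries were close. Pkm2, the row of the pyruvate kinase gene Pkm with all its isoforms, had 883 and 845 FPKM, a ratio of 0.958. Eno3, the enolase of muscle, had 70.4 and 77.3 FPKM, and Eno2, the enolase of neurons, had 2.94 and 3.23 FPKM.

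Eno1, the common enolase, was listed at 11.5 and 12.4 FPKM, but its row cannot be read alone. A gene listed as Gm5506 (Eno1b), 99.5% identical over 1736 bases, had 754 FPKM with the mock vector and 666 with the Sox12 vector. Reads from the bases they share cannot be told apart, and how the authors' counting divided them was not given in the sources used here. Their sum was 766 and 678 FPKM, a ratio of 0.885 and a change of -0.18. Other genes at least 95% identical to a member over 300 bases or more were found for 11 of the 40 members, mostly processed pseudogenes, and 76 of them for Gapdh. Among the 29 members without one, 25 were lower, with a median change of -0.65.

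Genes that decide the fate of pyruvate included the member with the highest change. Ldha, whose subunit favours the making of lactate, had 897 FPKM with the mock vector and 602 with the Sox12 vector, a ratio of 0.671. Ldhb, whose subunit is the one of heart and favours lactate use, had 14.2 and 80.3 FPKM, a ratio of 5.66 and a change of 2.42. Its change lay above that of 99.2% of the genes past the filter. A processed pseudogene, Gm5514, is 98.0% identical to Ldhb over 1002 bases, so part of its reads could be divided. The share of Ldhb in the sum of both lactate dehydrogenase genes was 1.56% with the mock vector and 11.8% with the Sox12 vector. In the Treg libraries that share was 10.8% untreated and 10.7% with DSS.

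Lactate leaves and enters the cell through monocarboxylate transporters. Slc16a3 (MCT4), the form suited to export, had 81.7 FPKM with the mock vector and 38.9 with the Sox12 vector (change -1.05). Slc16a1 (MCT1) had 26.6 and 19.9 FPKM (change -0.40). Slc16a3 made up 75.5% of the pair with the mock vector and 66.1% with the Sox12 vector, against 19.4% in each of the Treg libraries. Pdk1, a kinase that keeps pyruvate out of the mitochondria by inhibiting pyruvate dehydrogenase, had 22.9 and 11.5 FPKM (change -0.94). The related kinases are no members: Pdk2 had 1.21 and 4.99 FPKM, a change of 1.44 in the other direction, and Pdk3 had 35.3 and 24.6 FPKM. Pdk1 made up 38.6% of the 3 kinases with the mock vector and 28.0% with the Sox12 vector, and Pdk2 2.04% and 12.1%.

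**Figure D2:**
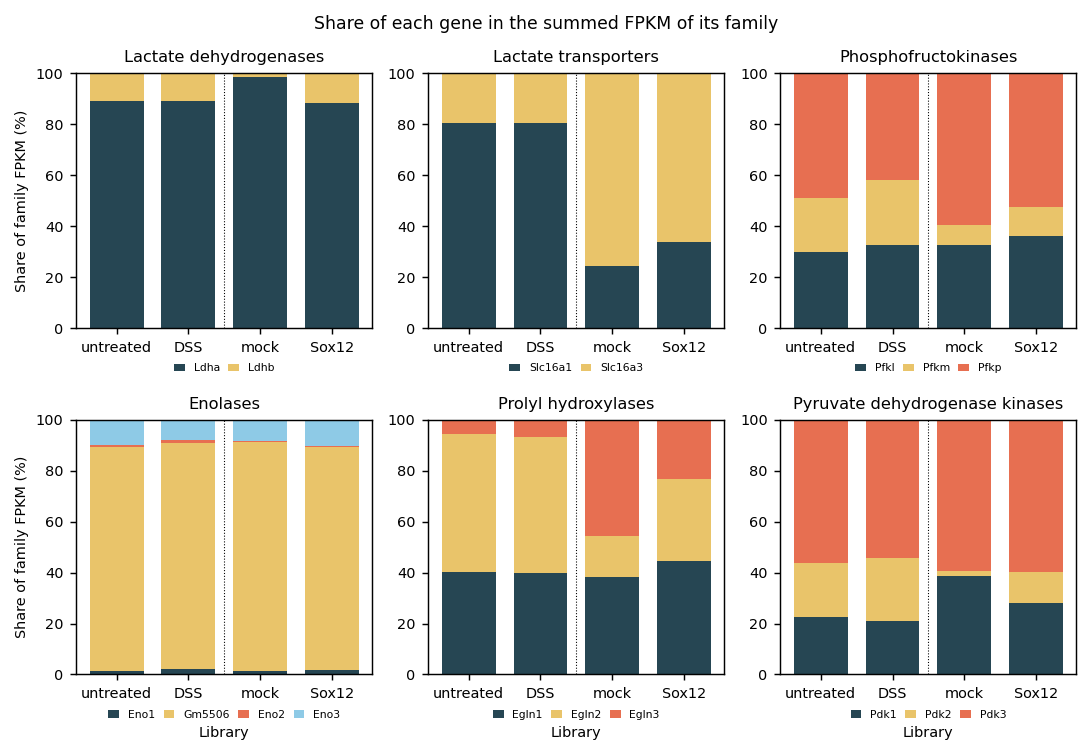
Share of each gene in the summed FPKM of 6 enzyme and transporter families, in percent, with 1 bar for each of the 4 libraries and a dotted line between the experiments. Ldhb is 1.56% of lactate dehydrogenase with the mock vector and between 10.7% and 11.8% in the other libraries, and Egln3 is 45.7% of the prolyl hydroxylases with the mock vector and 23.3% with the Sox12 vector.

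The members Hif1a, Egln1 and Egln3 were lower as well. Hif1a, the oxygen-regulated subunit of HIF, had 113 FPKM with the mock vector and 79.3 with the Sox12 vector (change -0.50). HIF is controlled chiefly through the stability of its protein, which transcript levels do not show. Egln1 (PHD2), the main hydroxylase that marks HIF1A for destruction, had 40.1 and 25.3 FPKM (change -0.65). Egln3 (PHD3), a hydroxylase that HIF itself induces, had 48.0 and 13.2 FPKM, a ratio of 0.275 and a change of -1.79. Of the 3 hydroxylases, Egln3 made up 45.7% with the mock vector and 23.3% with the Sox12 vector, against 5.71% in untreated Treg and 6.69% in DSS Treg.

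Among the 12 other genes of the hypoxia response 10 were lower, with a median change of -0.72. Bnip3, which directs mitochondria to autophagy, had 49.3 and 21.0 FPKM with the mock and Sox12 vectors (change -1.19), and Bnip3l, its relative, had 33.1 and 22.1 FPKM (change -0.56). Ero1l, an oxidase that forms disulfide bonds in the endoplasmic reticulum, had 64.2 and 28.8 FPKM (change -1.13). P4ha1 and P4ha2 encode the catalytic subunits of collagen prolyl 4-hydroxylase. P4ha1 had 31.9 and 17.8 FPKM (change -0.80), and P4ha2 had 4.35 and 1.64 FPKM (change -1.02). Vegfa, the growth factor of blood vessels, had 17.7 and 9.37 FPKM (change -0.85).

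Ndrg1, a stress-response gene, had 25.6 and 12.3 FPKM with the mock and Sox12 vectors, a ratio of 0.481. Ddit4 (REDD1), an inhibitor of mTORC1, had 67.3 and 43.9 FPKM (change -0.61). Ankrd37, an ankyrin repeat gene induced by HIF, had 9.34 and 5.63 FPKM (change -0.64), and Higd1a, a mitochondrial inner membrane protein, had 14.4 and 9.94 FPKM (change -0.49). The 2 that were higher act in the nucleus. Kdm3a, a histone demethylase, had 20.2 and 30.3 FPKM, a ratio of 1.499, and Mxi1, an antagonist of Myc, had 13.2 and 15.9 FPKM (change 0.25).

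Counting error is small beside most of these differences. Taking fragments as FPKM times transcript length and depth, the exact 95% interval of the ratio lay below 1 for 33 members and above 1 for 4, and included 1 for Pfkfb4, Eno1 and Eno2. The fewest fragments, 160, stood behind P4ha2 with the Sox12 vector, whose ratio of 0.378 had an interval of 0.313 to 0.455. The interval of Aldoc was 0.188 to 0.228 and that of Ldhb 5.24 to 6.11. These intervals cover counting error only, not the differences between cultures or preparations. No member had another direction under other pseudocounts, filters or scalings.

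Markers of other cells also differed between the vector libraries. All 6 genes of the natural killer and CD8 T cell list were higher with the Sox12 vector, with a sum of 44.1 FPKM with the mock vector and 176 with the Sox12 vector. Most of it was Prf1 (perforin), at 30.3 and 135 FPKM, and Cd8a had 0.580 and 5.58. Of the T cell identity list 6 of 7 genes were lower, with sums of 1416 and 1168 FPKM. The Treg list was divided, with Foxp3 and Ikzf2 higher and 3 genes lower. It summed to 1169 and 1051 FPKM, of which Il2ra alone had 629 and 568. The B cell list summed to 2.03 and 2.63 FPKM. The summed level of the erythroid list was 312 and 207 FPKM, mostly from Tfrc (260 and 189 FPKM), which dividing T cells express too. Of the globin genes in that list, Hbb-b1 had 46.6 and 9.27 FPKM (change -2.21) and Hba-a1 had 1.74 and 4.23 FPKM, while Slc4a1, Car1 and Epb4.2 were listed at 0. Basophil, neutrophil, macrophage and platelet lists had no gene past the filter, and their sums lay between 0.161 and 1.05 FPKM. The part of these marker differences in the levels of the metabolic genes was not tested. In such bulk libraries fewer cells of a type and less RNA per cell cannot be told apart.

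**Figure D3:**
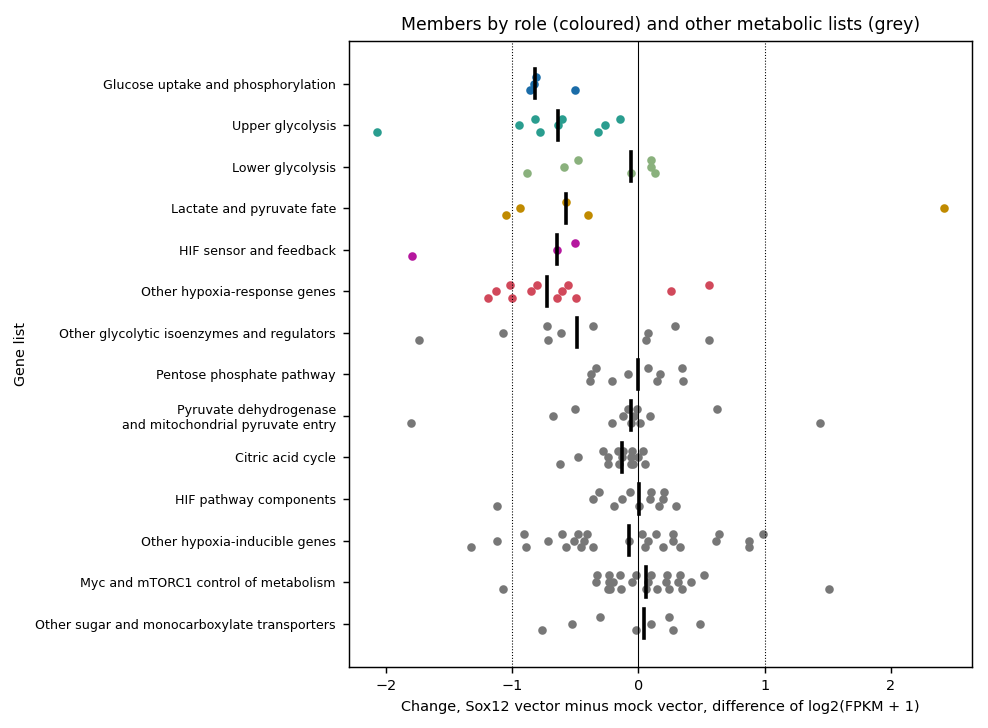
Change of every gene past the filter in each list of the vector experiment, Sox12 vector minus mock vector, on the log2(FPKM + 1) scale, with the members by role in colour and the other metabolic lists in grey. The glucose uptake, upper glycolysis and hypoxia roles lie mostly left of 0, with medians between -0.82 and -0.63, lactate and pyruvate fate has a median of -0.57 and lower glycolysis one of -0.06, and the grey lists have medians between -0.49 and 0.06.

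Neighbouring pathways outside the 40 genes had medians nearer to 0 than that of the members. Their counts are to be read against all 10822 genes past the filter. Of these 51.1% were lower, 6.88% by at least 1.5 times and 1.91% by at least 2 times, and 1093 were at least 1.5 times higher. Of 10 other glycolytic and glycogen genes past the filter 6 were lower, 2 of them at least 2 times: Pygl, a glycogen phosphorylase, had 3.84 FPKM with the mock vector and 0.450 with the Sox12 vector, and Pgm2, a phosphoglucomutase, had 49.5 and 23.0 FPKM. The pentose phosphate pathway, which branches off at glucose 6-phosphate, had 5 genes higher and 5 lower, with Tkt (transketolase) at 226 and 174 FPKM and Pgd (phosphogluconate dehydrogenase) at 73.9 and 82.0 FPKM. The median change of these 2 lists was -0.49 and -0.01. At least 1.5 times lower were 5 of the other glycolytic and glycogen genes (50%) and 0 of the pentose phosphate genes. In neither list was a gene at least 1.5 times higher.

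Of 13 genes around pyruvate dehydrogenase 9 were lower, with a median of -0.06, and Pcx (pyruvate carboxylase), which feeds the citric acid cycle from pyruvate, had 38.6 and 10.4 FPKM with the mock and Sox12 vectors (change -1.80). The citric acid cycle had 14 of 16 genes lower, none by 2 times, with a median of -0.13, and Mdh2 (malate dehydrogenase) had 246 and 220 FPKM. Other components of the HIF pathway were 7 higher and 6 lower with a median of 0.00, and Hif3a, an inhibitory relative of HIF1A, had 2.47 and 0.597 FPKM. A further 27 hypoxia-inducible genes outside the module were 13 higher and 14 lower, with a median of -0.07. At least 1.5 times lower were 6 (22.2%), and 5 were at least 1.5 times higher. Of the 27, Stc2, a secreted glycoprotein, had 61.1 and 23.8 FPKM, and Ak4, a mitochondrial adenylate kinase, had 6.002 and 2.22 FPKM.

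Regulators of metabolism through Myc and mTORC1 were 13 higher and 12 lower, with a median of 0.06. Mxd1, which competes with Myc for its partner MAX, had 10.0 FPKM with the mock vector and 30.4 with the Sox12 vector (change 1.51), and Irf4, a factor of activated T cells, had 96.7 and 45.3 FPKM (change -1.08). Of 8 other sugar and monocarboxylate transporter genes 4 were higher and 4 lower. Bsg (basigin), the chaperone of the lactate transporters, had 215 and 149 FPKM, and Emb (embigin), which has a like role, had 76.3 and 75.4 FPKM.

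In Treg, these genes differed little between the DSS and untreated libraries, with no member at least 2 times higher or lower. Of 36 members past the filter 29 were higher with DSS (80.6%), against 66.1% of the 10545 genes past it, and 7 were lower, against 33.9%. The 2-fold limit was passed upward by 0.190% of all genes and downward by 0.0759%. The median change of the members was 0.13, and that of all genes was 0.05. When the median ratio of all genes was set to 0, 25 of 36 members were higher, against 49.995% of all genes, and Pgam1, Pkm2, Hif1a and Ero1l took the other direction. Aldoc, with 1.15 and 0.724 FPKM, did not pass the filter.

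**Figure D4:**
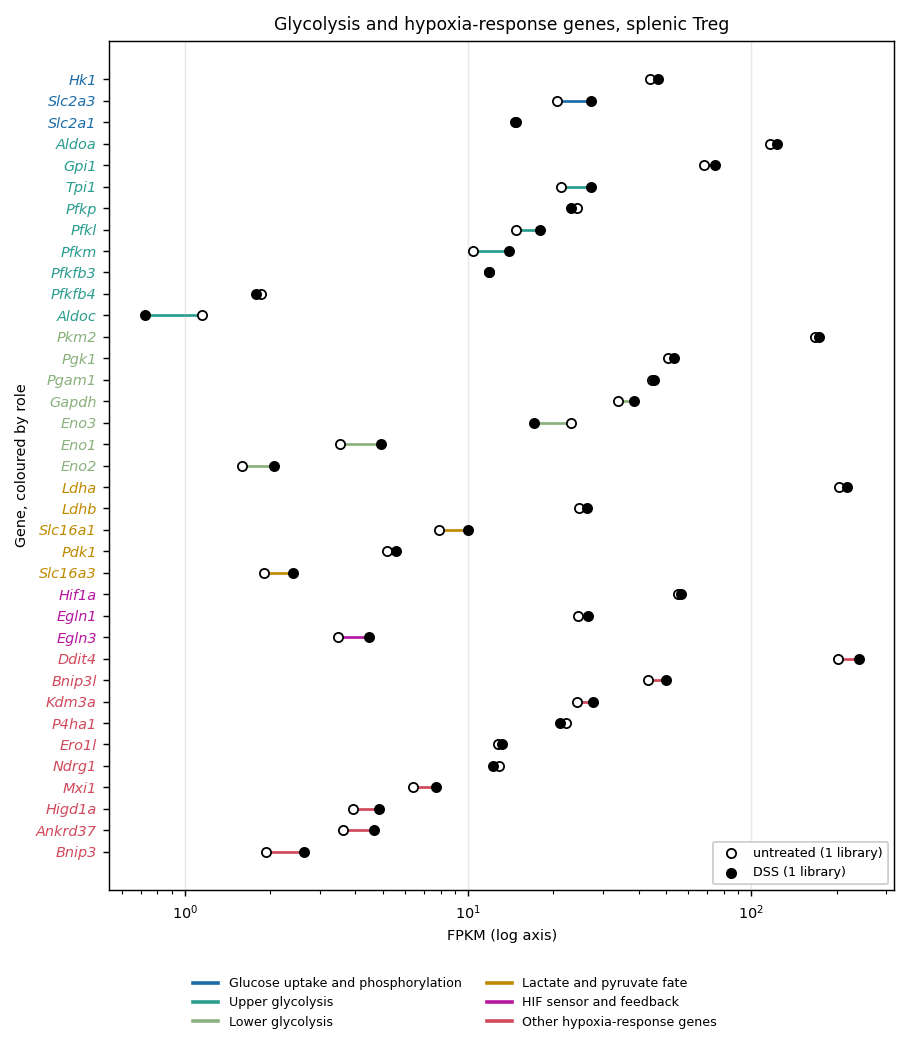
Level of each of the 37 members with a row in the Treg experiment in FPKM on a log axis, with 1 point for the untreated library and 1 for the DSS library, joined by a line and coloured by role. The points of most genes lie close together, and ratios of DSS to untreated of the 36 genes past the filter run from 0.739 for Eno3 to 1.395 for Eno1. The row of Eno1 cannot be read alone, and its sum with the near-identical Gm5506 has a ratio of 0.936.

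Glucose uptake and the upper steps held a few of the larger differences. Slc2a3 had 20.5 FPKM untreated and 27.1 with DSS, a ratio of 1.32, while Slc2a1 had 14.7 in both libraries. Hk1 had 44.0 and 46.7 FPKM. Among the phosphofructokinases Pfkm had 10.4 and 13.99 FPKM (ratio 1.35), Pfkl had 14.8 and 17.9, and Pfkp had 24.3 and 23.0. The share of Pfkp in the 3 was 49.2% untreated and 41.9% with DSS. Of the other upper genes, Tpi1 had 21.3 and 27.1 FPKM, Gpi1 68.1 and 74.6, and Aldoa 117 and 123. Pfkfb3 had 11.9 and 11.8 FPKM and Pfkfb4 1.85 and 1.79, both close to equal.

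Of the lower steps, Gapdh had 33.8 FPKM untreated and 38.4 with DSS, Pgk1 50.97 and 53.3, Pgam1 44.7 and 45.2, and Pkm2 168 and 174. Eno3 was the member with the lowest change, at 23.2 and 17.1 FPKM (change -0.42), which only 1.03% of genes past the filter undercut. Eno1 was listed at 3.52 and 4.92 FPKM, but its near-identical Gm5506 had 203 and 189 FPKM, so that the sum was 207 and 194 FPKM. Eno2 had 1.59 and 2.06 FPKM. Eno3 and the sum of Eno1 and Gm5506 were thus lower with DSS. The other genes of the lower steps were higher, with ratios from 1.01 for Pgam1 to 1.30 for Eno2. Pgam1 turned lower under each of 3 other scalings and Pkm2 under 1.

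All 5 genes of lactate and pyruvate handling were higher with DSS, by small amounts, against 66.1% of all genes past the filter. The median change of the 5 was 0.096, and that of all genes was 0.05. Ldha had 204 and 218 FPKM and Ldhb 24.7 and 26.3, which left the share of Ldhb at 10.8% and 10.7%. Slc16a1 had 7.92 and 10.03 FPKM and Slc16a3 1.90 and 2.41, both ratios of 1.27. Pdk1 had 5.17 and 5.56 FPKM. By transcript level Slc16a1 was thus the higher of the pair in both Treg libraries, in contrast to both vector libraries, where Slc16a3 was.

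Of 13 hypoxia genes past the filter 11 were higher with DSS (84.6%), against 66.1% of all genes. Hif1a and Ero1l were higher by so little that 1 other scaling turned them. The median change of the 13 was 0.21, and that of all genes was 0.05. Hif1a had 54.9 FPKM untreated and 56.4 with DSS, Egln1 24.4 and 26.6, and Egln3 3.47 and 4.47. Ddit4, the most abundant member in the DSS library, had 203 and 239 FPKM, and Bnip3l had 43.1 and 49.9 FPKM. Bnip3 was far lower than its relative, at 1.94 and 2.63 FPKM, and made up 4.30% and 5.01% of the pair, against 59.9% and 48.7% with the mock and Sox12 vectors. Ankrd37 had 3.62 and 4.65 FPKM, Higd1a 3.91 and 4.86, Mxi1 6.40 and 7.72, and Kdm3a 24.2 and 27.5. Ero1l had 12.7 and 13.2 FPKM. The 2 that were lower, P4ha1 with 22.1 and 21.1 FPKM and Ndrg1 with 12.9 and 12.3 FPKM, differed by less than 5%.

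Many but not all markers of other blood cells were higher in the DSS library beside these differences. The counts below are to be read against the 66.1% of all genes past the filter that were higher. All 12 erythroid genes with a row were higher, with sums of 575 FPKM untreated and 865 with DSS and a median change of 0.57. Basophil genes summed to 8.20 and 29.9 FPKM, and 4 of 4 past the filter were higher. Of the 4, Gata2 had 0.712 FPKM untreated and 1.34 with DSS. Genes at or below 1 FPKM in both libraries are left out, so Gata2 was listed only through its DSS value and its direction carries no weight. Neutrophil and myeloid precursor genes summed to 20.2 and 29.2 FPKM, and 3 of 3 past the filter (Mpo, Prtn3 and Elane) were higher. Below the filter S100a8 had 1.08 FPKM untreated and 0.678 with DSS, and S100a9 had 1.19 and 0.449, both lower with DSS. T cell identity genes summed to 2035 and 2007 FPKM and Treg genes to 499 and 503. B cell genes summed to 8.67 and 9.15 FPKM and natural killer and CD8 T cell genes to 9.02 and 8.07, and of the macrophage and platelet lists the table held only Lyz2 (8.30 and 6.36 FPKM) and Itga2b (0.878 and 1.401 FPKM). Pklr, a pyruvate kinase of red cells and liver that is no member, had 9.20 and 14.8 FPKM. Its change of 0.63 was the highest in its list of 11, whose median was 0.08. In both vector libraries Pklr was listed at 0. The part of these cells in the levels of the members was not tested.

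**Figure D5:**
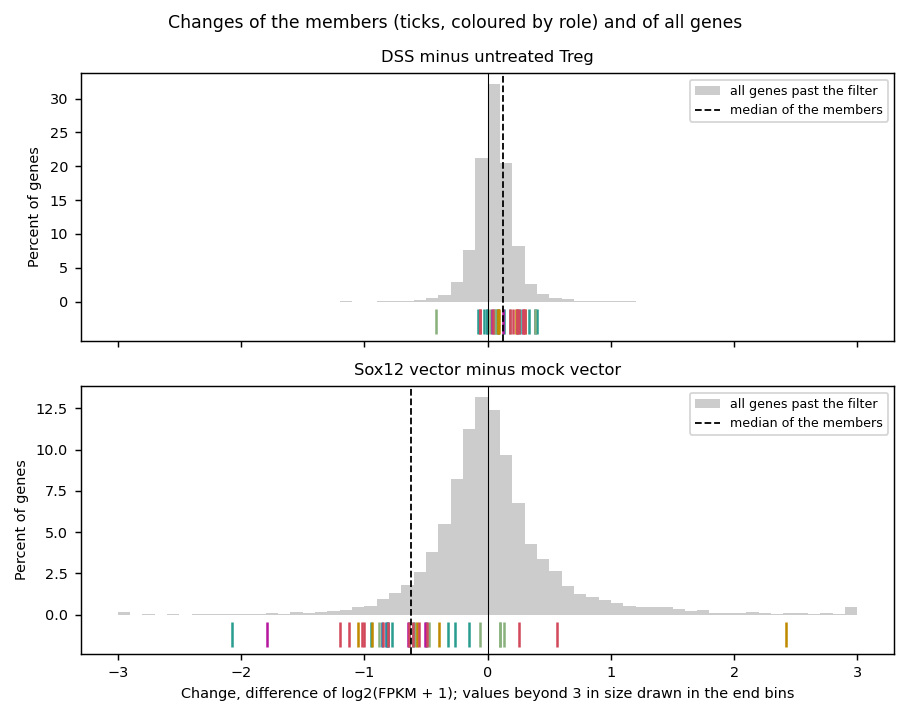
Changes on the log2(FPKM + 1) scale of the members (ticks coloured by role) under the distribution of all genes past the filter (percent of genes), for the Treg experiment and for the vector experiment. The ticks of the Treg experiment lie between -0.42 and 0.40, while most ticks of the vector experiment lie left of the middle of all genes, from -2.07 for Aldoc, with Ldhb alone at 2.42.

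The neighbouring pathways are to be read against the 66.1% of all genes that were higher with DSS, and none of their genes reached 2 times. The share of higher genes was 61.5% around pyruvate dehydrogenase, 68% among the other hypoxia-inducible genes, 71.4% among the other transporters and 75% in the citric acid cycle, near that background, and 84% to 92.3% in the remaining 4 lists. Of 11 other glycolytic genes 10 were higher, and Pygb, a glycogen phosphorylase, had 27.0 and 27.4 FPKM. The pentose phosphate pathway had 9 of 10 genes higher, with Taldo1 (transaldolase) at 64.6 and 66.4 FPKM and Tkt at 61.5 and 62.3. Around pyruvate dehydrogenase 8 of 13 were higher, and its subunit genes Pdha1 and Pdhb had 59.8 and 66.0 FPKM and 37.2 and 38.2 FPKM. The citric acid cycle had 12 of 16 genes higher, with Mdh2 at 131 and 130 FPKM and Sdha, a subunit of succinate dehydrogenase, at 76.3 and 83.9 FPKM. The HIF components had 12 of 13 genes higher, with Gnb2l1 (RACK1), a ribosomal scaffold that also binds HIF1A, at 918 and 926 FPKM and Tceb2 (elongin B) at 72.3 and 76.5. Of the other hypoxia-inducible genes 17 of 25 were higher, among them the chemokine receptor Cxcr4 with 142 and 170 FPKM and the cytokine Mif with 83.8 and 93.8. Of the Myc and mTORC1 list 21 of 25 were higher, and Txnip, an inhibitor of glucose uptake, had 633 and 689 FPKM, beside Mxd4, a relative of Mxd1, with 89.8 and 91.4. The other transporter list had 5 of 7 higher, with Emb at 78.7 and 97.6 FPKM and Bsg at 77.8 and 92.2. The median changes of these 8 lists lay between 0.04 and 0.19.

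Summed over the enzymes from hexokinase to lactate dehydrogenase with Gm5506, glycolytic transcripts came to 5135 FPKM with the mock vector and 3781 with the Sox12 vector, which is 1.20% and 0.916% of all FPKM of those libraries. The same sum over the 18 of these 19 genes with a row in the Treg table was 1058 FPKM untreated and 1095 with DSS, or 0.324% and 0.332% of the FPKM listed there. The Treg table leaves out genes at or below 1 FPKM in both libraries, so its total is not that of the library.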

How the data were processed

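Total RNA of 4 T cell libraries was purified and made into strand-specific libraries, per the labels' protocols. Cufflinks and the build mm9 are named in the submitters' processing notes, with no versions. The aligner, the annotation and the use of strand were not given in the sources used here. The authors deposited FPKM per gene for the Treg experiment and log2(FPKM + 1) per gene for the vector experiment, which was turned back into FPKM. The deposited fold or ratio columns, linear in the Treg table and log2 in the vector table, were not used. Groups came from the titles.

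Rows with names turned into dates by a spreadsheet (16 in the Treg table, 0.261% to 0.263% of its FPKM, and 25 in the vector table, 0.200% to 0.218%) were left out. Genes whose libraries averaged 1 FPKM or more passed the filter, and the pseudocount was 1 FPKM. No test was run, since each group had 1 library. The members and gene lists were chosen with earlier results of these data known. All 40 members were named, and of each other list up to 4 genes with a change of at least 1 in size, or else the 2 of highest mean. A gene that the rule takes is not reported here. Pdk3, Egln2, the near-identical Gm5506 and Gm5514, and in the vector libraries Pklr, Errfi1, Nt5e and Cxcr4 fall outside this rule. They were added after their values were seen, as were the marker genes given by name.

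The depth of the vector libraries was sought as the fragment number at which low FPKM, below 0.3, times transcript length come out whole, over 350 genes with the mock vector and 411 with the Sox12 vector. Exact 95% intervals of ratios use the lengths of a later annotation and cover counting error only. The calculation of the change and the 2-fold rule were tested on simulated data. The depth search, the intervals, the search for near-identical genes and the counts of the HIF core were not. Near-identical genes were sought with BLAST 2.17.0 (at least 95% identity over at least 300 bases and 50% of the transcript). Windows before start sites came from RefSeq for GRCm38.p6 and served for sequence only. Python 3.11.15, numpy 2.4.6, pandas 2.3.3, scipy 1.17.1 and matplotlib 3.10.9 were used. Alternatives were pseudocounts of 0.1 and 5 FPKM, no filter, a filter of 5 FPKM and 3 other scalings.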

Additional observations from a re-analysis of the deposited data

How the results depend on the processing

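With 1 library per group no replicate could be left out, and no paired analysis was possible because each group has a single library. Over pseudocounts of 0.1 and 5 FPKM, no filter, a mean of at least 5 FPKM and 3 other scalings, the median change of the members lay between -0.65 and -0.57 in the vector experiment and between 0.07 and 0.13 in the Treg experiment. Lower with the Sox12 vector were 32 to 34 members, 4 to 7 of them at least 2 times, and 1 was at least 2 times higher in each setting. Higher with DSS were 22 to 29 members (22 of the 28 with a mean of at least 5 FPKM), and none passed the 2-fold limit. Scaling moved the median of all genes by less than 0.1, but the share of all genes higher with DSS, 66.1%, became 49.995% with the median ratio set to 0, 55.5% with equal 75th percentiles and 59.5% when totals were made equal leaving out the 20 highest genes. An alternative chosen after seeing the data kept only members with no near-identical other gene. In it 18 of 25 members were higher with DSS, and 0 of 29 were at least 2 times higher with the Sox12 vector, since Ldhb was among the members left out by its construction. The Treg libraries give no depth, so no counting interval could be set there.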
